A study of Mus musculus with 10 samples.

Results

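The S100 genes encode small calcium-binding proteins. The family is described here by 10 members, S100a1, S100a4, S100a6, S100a8, S100a9, S100a10, S100a11, S100a13, S100a14 and S100a16, which were chosen by their symbols and make up 10 of the 48897 rows of each of 2 tables of RNA levels. The first table covers prostate epithelial cells sorted as EpCAM+ and CD45- from 3-month-old C57BL/6 mice, with 3 control libraries (A, B and C) and 3 libraries (A, B and C) labelled Arid1aPC-/-. Arid1a was deleted by a Cre driven by the Probasin promoter, which is active in prostate epithelium. The controls are not wild type, since both groups share a tumour-prone background made with the same Cre. The second table covers Myc-CaP, an FVB prostate cancer line from a mouse carrying a c-Myc transgene, with 2 libraries (1 and 2) of cells given an empty vector (EV) and 2 (1 and 2) of Arid1a KO cells made with CRISPR guides delivered by lentivirus. Whether the KO cells were a single clone is not given in the sources used here. The labels were read as cells in culture, but all 10 libraries carry the same growth text. Whether the Myc-CaP RNA came from culture or from sorted tumour cells is therefore not settled. The comparison in each system asks which RNA levels differed where Arid1a, a DNA-binding subunit of the SWI/SNF chromatin remodelling complex, was targeted.

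S100 proteins are built from a pair of EF hands, the loop that holds a calcium ion, and most work as dimers that open a binding surface when calcium rises and then attach to a partner protein. Several also leave the cell and act on receptors such as RAGE (Ager) and Tlr4. Epithelia carry many members at once, whereas the S100a8 and S100a9 pair, known together as calprotectin, is best known from neutrophils and from stressed or inflamed squamous epithelium.

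Arid1a itself was first examined as a check of the labels. In the epithelium its level was 27.8, 21.9 and 26.5 RPKM (reads scaled to gene length and to the depth of the library) in controls A, B and C and 31.1, 28.8 and 30.8 RPKM in the libraries labelled Arid1a KO, with a log2 fold change of 0.25 ± 0.09 (SE; adjusted p = 0.054). The RNA level of the targeted gene was therefore not lower in the epithelial libraries labelled Arid1a KO, and a value over the whole gene need not show the loss of single exons. Where the epithelium is described, KO stands for the libraries that carry this label. In Myc-CaP cells Arid1a fell from 60.5 and 61.0 TPM (a level scaled to gene length and to a fixed sum per library) in EV to 39.5 and 40.3 TPM in the KO (log2 fold change -0.59, adjusted p = 0.0102). Fold changes throughout are KO minus control on the scale of log2(value + 1), and adjusted p-values come from limma with Benjamini-Hochberg adjustment over all genes tested in a table. Replicates correlated across genes at r between 0.987 and 0.994. The methods give n as 3 for the mice of the epithelium, without tying each library to an animal. For Myc-CaP nothing says that replicates came from separate cultures, so its p-values measure the spread between these libraries only, which may be technical. The gate was checked against cell markers in the epithelium. Epcam was present in every library, at 304 RPKM on average in controls and 201 RPKM in the KO. RNA of CD45+ cells was present as well, with Ptprc, which encodes CD45, at 28.6 and 57.3 RPKM on average. Of 8 leukocyte genes 7 rose and 1 fell (Cd52) at an adjusted p under 0.05, against 27.5% and 29.6% of all tested genes. In Myc-CaP the epithelial marker Epcam was listed at 0 in 3 of 4 libraries and at 0.128 TPM in KO 2.

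All 10 members lie on mouse chromosome 3 (GRCm38). Of these, 8 fall within 184688 bases, from 90511034 to 90695721, in the order S100a1, S100a13, S100a14, S100a16, S100a4, S100a6, S100a8 and S100a9. S100a11 and S100a10 lie apart, from 93520488 to 93564643, with 2824766 bases between the clusters. S100a1 (minus strand, 90511034 to 90514392) and S100a13 (plus strand, 90514435 to 90524581) stand head to head, with 42 bases between their annotated starts. S100a4 (90603771 to 90606045) overlaps the annotated gene Gm42674 on the same strand, so reads could be shared between them.

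RefSeq (GRCm38.p6) held the start region of 8 of the 10 members, without an entry for S100a10 and S100a14. The stretch between S100a1 and S100a13 is shown because these neighbours share it, and the upstream bases of S100a16 and S100a4 because the mean levels of both genes were over 2-fold higher in Arid1a KO Myc-CaP cells. Of the annotated starts of S100a16 only the second is shown, and its window held a match to a searched motif. The 250 bases before the first start (90537004 to 90537253) held no match. Each sequence shown is given 5′ to 3′ on the plus strand, and capitals mark a match.
S100a1 to S100a13, chr3:90514393-90514434: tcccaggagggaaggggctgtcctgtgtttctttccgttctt
S100a16, second annotated start, chr3:90540896-90541145: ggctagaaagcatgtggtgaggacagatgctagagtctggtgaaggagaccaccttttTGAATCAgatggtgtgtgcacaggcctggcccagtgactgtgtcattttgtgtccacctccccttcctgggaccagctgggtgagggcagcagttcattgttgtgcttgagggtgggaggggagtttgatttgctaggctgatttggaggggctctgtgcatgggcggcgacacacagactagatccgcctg
S100a4, chr3:90603520-90603769: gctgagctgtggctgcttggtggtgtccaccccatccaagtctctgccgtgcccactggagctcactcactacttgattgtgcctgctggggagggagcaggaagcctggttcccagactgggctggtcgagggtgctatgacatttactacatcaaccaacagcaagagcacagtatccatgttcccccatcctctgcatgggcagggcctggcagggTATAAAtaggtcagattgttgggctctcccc
The capitals in S100a4 are a TATA box (TATAAA) at position -31, counted back from -1 at the base before the start. Those in S100a16 (TGAATCA, position -192) match TGANTCA, a loose pattern for AP-1 sites in which N is any base. Both strands of the 250 bases before each start were searched. TATAAA occurred in 2 of the 9 member windows (S100a4 and S100a8) and in 12.4% of 32851 promoters in the table. TGANTCA occurred in 2 of the 9 (S100a16 and S100a11, the latter with 2 matches) against 6.75% of promoters, and CCAAT in 1 (S100a6) against 33.8%. The C/EBP motif TTGCNNAA occurred in 1 window, at position -236 of S100a9, and in 9.56% of promoters. Neither the CRE motif TGACGTCA (1.55% of promoters) nor the kappaB consensus (3.90%) was found in the member windows. The motifs do not overlap each other in these windows, and a match is a description of the letters only.

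The members differed widely in level within the epithelium. In controls the highest was S100a11 at 974 ± 15.7 RPKM (SD, n = 3), which ranked 45 among 16275 tested genes, and S100a6 followed at 406 ± 79.3 RPKM. S100a10, S100a9, S100a8, S100a1, S100a14 and S100a16 came next, between 213 and 74.0 RPKM on average, and each overlapped its neighbour in this order. S100a4 at 41.3 ± 1.13 RPKM and S100a13 at 17.2 ± 1.82 RPKM were lowest, apart from their neighbours. S100a6, S100a10 and S100a11 together held 68.2% to 73.2% of the summed family level in controls and 62.2% to 70.7% in the KO. The family sum was 2088 to 2520.1 RPKM in controls and 2179 to 2476 RPKM in the KO, which overlap. As a share of all RPKM in a library, the family held 0.473% to 0.532% in controls and 0.541% to 0.618% in the KO, which do not. The sum of all RPKM that divides this share was itself lower in every KO library, at 397999 to 403031 against 441646 to 473331 in controls. Control B was the highest control for 8 of the 10 members.

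**Figure D1:**
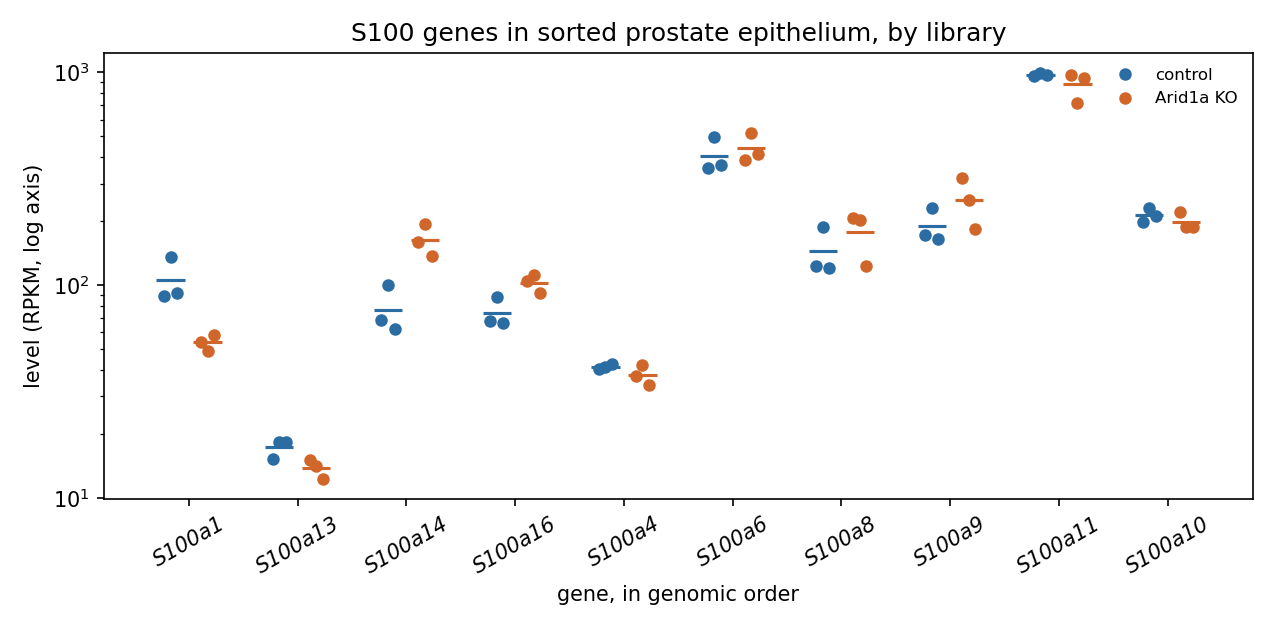
RPKM levels of the 10 S100 genes in sorted prostate epithelium on a log axis, with genes in genomic order, 1 point per library and a bar at each group mean (n = 3 control and 3 Arid1a KO). The KO points lie wholly below the controls for S100a1 and S100a13 and wholly above them for S100a14 and S100a16, and the groups overlap for the other 6 genes.

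All 10 members passed the minimum mean of 0.5 RPKM in the epithelium. With the Arid1a label 2 rose (S100a14 and S100a16), 2 fell (S100a1 and S100a13), and 6 did not pass the test. This count of 4 of 10 stands against 57.1% of all tested genes called in this comparison, 27.5% higher and 29.6% lower. The same 4 were the members whose groups did not overlap, 2 higher and 2 lower, against 66.7% of all tested genes, 32.4% higher and 34.4% lower. By the thresholds of the study, an unadjusted p under 0.05 with at least a 1.5-fold change, 2 of 10 members passed (S100a14 and S100a1), against 24.8% of tested genes. The members had a median log2 fold change of 0.01, against -0.03 for all genes tested, so neither a larger share of calls nor a common direction marked the family.

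The epithelial members S100a14 and S100a16 rose. S100a14, which is typical of epithelia, had 68.7, 99.6 and 61.8 RPKM in controls A, B and C and 159, 194 and 137 RPKM in KO A, B and C. Every KO library lay above the highest control, and the means of 76.7 ± 20.1 and 163 ± 28.4 RPKM (SD, n = 3 each) differed 2.13-fold. Its log2 fold change was 1.10 ± 0.19 (SE; adjusted p = 0.00223), with a 95% interval of 0.65 to 1.54. S100a16, a widely expressed member and the next gene along the chromosome, had 67.7, 88.1 and 66.1 RPKM in controls and 105, 112 and 91.4 RPKM in the KO. All KO libraries again lay above the controls, though the lowest of them was only slightly above control B. The log2 fold change of S100a16 was 0.47 ± 0.13 (SE; adjusted p = 0.0143), and the adjusted p was 0.05 without control C and 0.0516 without KO B. The ratio of S100a14 to S100a16 within a library was 0.935 to 1.13 in controls and 1.501 to 1.735 in the KO, so the pair was unequal in its change. S100a14 was the only member past the thresholds of the study in the upward direction, against 11.8% of tested genes.

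Most tested genes of squamous epithelium stood higher in the same libraries. Of 10 such genes 8 were tested, 6 were called higher and none was called lower, against 27.5% of all tested genes called higher. Dsg3, among the 6, averaged 0.289 RPKM in controls and 8.08 RPKM in the KO. It was tested only through the KO, so the count is a description. Sprr1a was lower in every KO library than in any control, without passing the test (log2 fold change -0.22, adjusted p = 0.0526). The summed level of the 10 genes was 551 to 646 RPKM in controls and 1245 to 1490.2 RPKM in the KO. Of 4 basal genes 2 rose (Krt14 and Krt5), whereas Krt15 averaged 1107 and 849 RPKM (adjusted p = 0.0638) and Trp63 5.08 and 4.17 RPKM (adjusted p = 0.0962). Of 7 general epithelial genes 3 fell (Epcam, Krt19 and Krt18) and none rose, against 29.6% of all tested genes called lower. In bulk libraries a change in the number of cells of a type and a change in RNA per cell cannot be told apart. The part of these cell markers in the S100a14 and S100a16 values was not tested.

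S100a1 and S100a13 fell. S100a1, best known as a regulator of calcium handling in muscle, had 88.6, 135 and 92.1 RPKM in controls and 53.8, 48.8 and 58.5 RPKM in the KO. The KO libraries were close together and all below the controls, among which B was highest. The means were 105 ± 25.7 and 53.7 ± 4.82 RPKM (SD, n = 3 each), and the log2 fold change was -0.93 ± 0.16 (SE; adjusted p = 0.00197; 95% interval -1.30 to -0.56). S100a13, which takes part in the export of Fgf1 and Il1a, had 15.1, 18.2 and 18.3 RPKM in controls and 15.0, 14.2 and 12.3 RPKM in the KO. The groups were narrowly apart, with control A and KO A nearly equal. Its log2 fold change of -0.30 ± 0.10 (SE; adjusted p = 0.0368) lost its call in turn without control B (adjusted p = 0.0935), control C (0.115), KO B (0.071) or KO C (0.104), and also when libraries were rescaled to the same sum (-0.13, adjusted p = 0.287). Across their shared start region, the ratio of S100a1 to S100a13 was 5.02 to 7.40 in controls and 3.45 to 4.77 in the KO. S100a1 was the only member past the thresholds of the study in the downward direction, against 13% of tested genes.

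Some markers of other tissue also fell beside S100a1 and S100a13. All 8 genes of the seminal vesicle list, which encode secreted proteins of that gland, were lower, and their summed level went from 19459 to 21963 RPKM in controls to 647 to 1631 RPKM in the KO. Of 5 smooth muscle genes 4 fell and 1 rose (Acta2, at 38.0 and 64.2 RPKM on average). Their summed levels of 114 to 133 and 96.0 to 118 RPKM overlapped. Over all tested genes 29.6% were called lower and 27.5% higher. The B cell, T cell and endothelial lists held no called fall. There 5 of 6, 3 of 6 and 1 of 5 genes were called higher. The part of these lists in the S100a1 and S100a13 values was not tested.

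**Figure D2:**
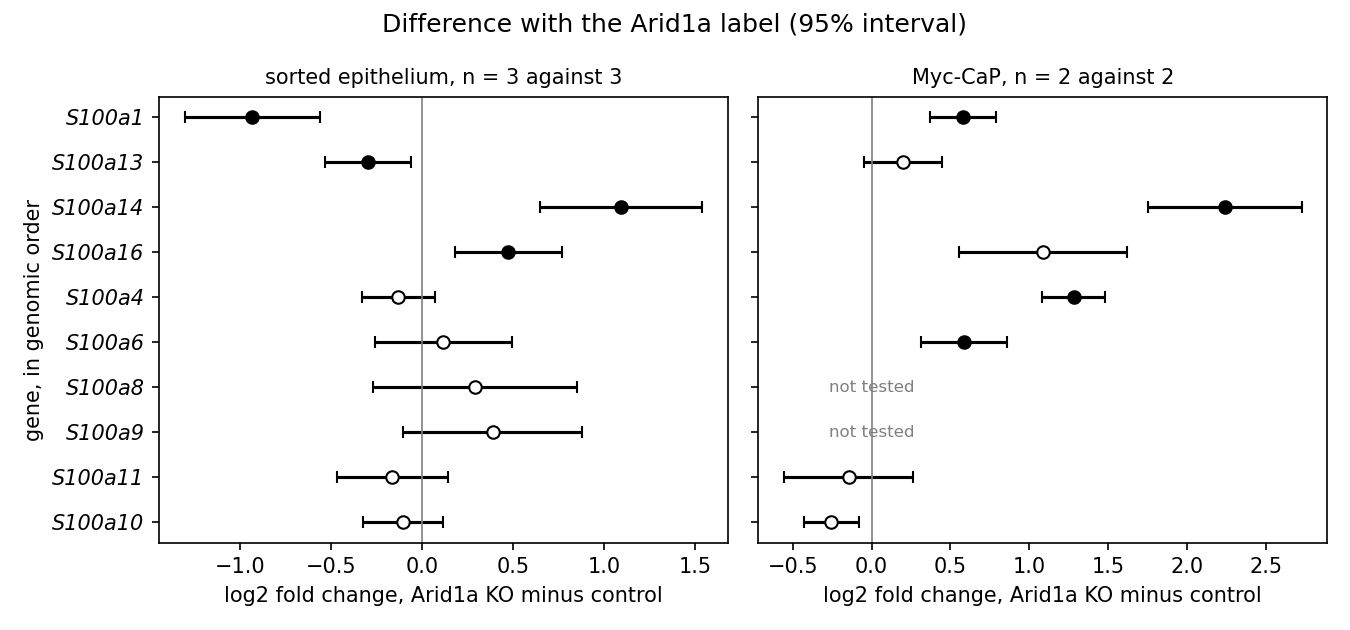
Log2 fold change of each S100 gene, Arid1a KO minus control, with the 95% interval from limma, in the epithelium (n = 3 against 3) and in Myc-CaP cells (n = 2 against 2). Filled points passed an adjusted p of 0.05: S100a1, S100a13, S100a14 and S100a16 in the epithelium, and S100a1, S100a14, S100a4 and S100a6 in Myc-CaP, where S100a1 lies on the opposite side of 0.

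The calprotectin pair was abundant in the epithelium without passing the test. S100a8 had 123, 188 and 121 RPKM in controls and 206, 202 and 123 RPKM in the KO. S100a9 had 172, 231 and 165 RPKM in controls and 319, 251 and 183 RPKM in the KO. For both genes KO A and KO B were high, and KO C fell among the controls, so that the groups overlapped. The log2 fold change was 0.29 ± 0.24 for S100a8 (SE; adjusted p = 0.332; 95% interval -0.27 to 0.85) and 0.39 ± 0.21 for S100a9 (SE; adjusted p = 0.152; 95% interval -0.11 to 0.88). Neither interval is narrow enough to set aside a moderate rise. Without KO C, S100a9 passed at 0.60 (adjusted p = 0.028), as it did with libraries rescaled to the same sum (0.57, adjusted p = 0.0391). The ratio of S100a9 to S100a8 stayed in a narrow range, 1.23 to 1.40 in controls and 1.25 to 1.55 in the KO.

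Neutrophils, which store the protein product of the pair, would be removed by the CD45- gate, yet transcripts of a neutrophil gene list were measured in these libraries, and most were higher in the KO. Of 15 neutrophil genes 13 were tested, and none was at 0 in every library. Against 27.5% of all tested genes called higher and 29.6% lower, 10 of the 13 rose and 1 fell (Camp, an antimicrobial granule peptide). The summed level of the list was 235 to 250 RPKM in controls and 663 to 789 RPKM in the KO. Much of this was Ltf (lactoferrin), a secreted protein that glandular epithelium makes too, at 89.8 and 401 RPKM on average. Without Ltf the sum was 146 to 154 RPKM in controls and 280 to 367 RPKM in the KO. Ly6g averaged 0.409 RPKM in controls and 1.13 RPKM in the KO, and was tested only through the latter. Retnlg, another transcript of mature neutrophils, had 22.6 and 27.1 RPKM (adjusted p = 0.311). Ngp, also on the list, averaged 1.44 RPKM in both groups (adjusted p = 0.851), and Elane and Mpo were not tested.

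The pair was also read against the summed level of the neutrophil list. Their summed level was 294, 419 and 285 RPKM in controls A, B and C and 525, 453 and 306 RPKM in KO A, B and C. Per RPKM of the neutrophil list without Ltf, this came to 1.93, 2.88 and 1.85 in controls and 1.43, 1.30 and 1.09 in the KO. That ratio was lower in every KO library than in any control, but it depends on the genes chosen. The list sum includes Itgam (27.1 and 88.0 RPKM on average), Mmp9 (34.5 and 70.2 RPKM), Trem1 (21.3 and 54.5 RPKM) and Csf3r (23.1 and 49.4 RPKM). The ratio is therefore not a level per neutrophil. Per RPKM of Retnlg alone, a comparison added after the data were seen, the pair came to 13.1, 16.4 and 14.3 in controls and 15.6, 16.4 and 15.3 in the KO, and the groups overlapped. The macrophage list also rose, with all 10 genes called higher, against 27.5% of all tested genes. Its sum was 2333 to 2719 RPKM in controls and 4174 to 4899 RPKM in the KO. How much of the calprotectin RNA came from epithelial cells was not tested.

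**Figure D3:**
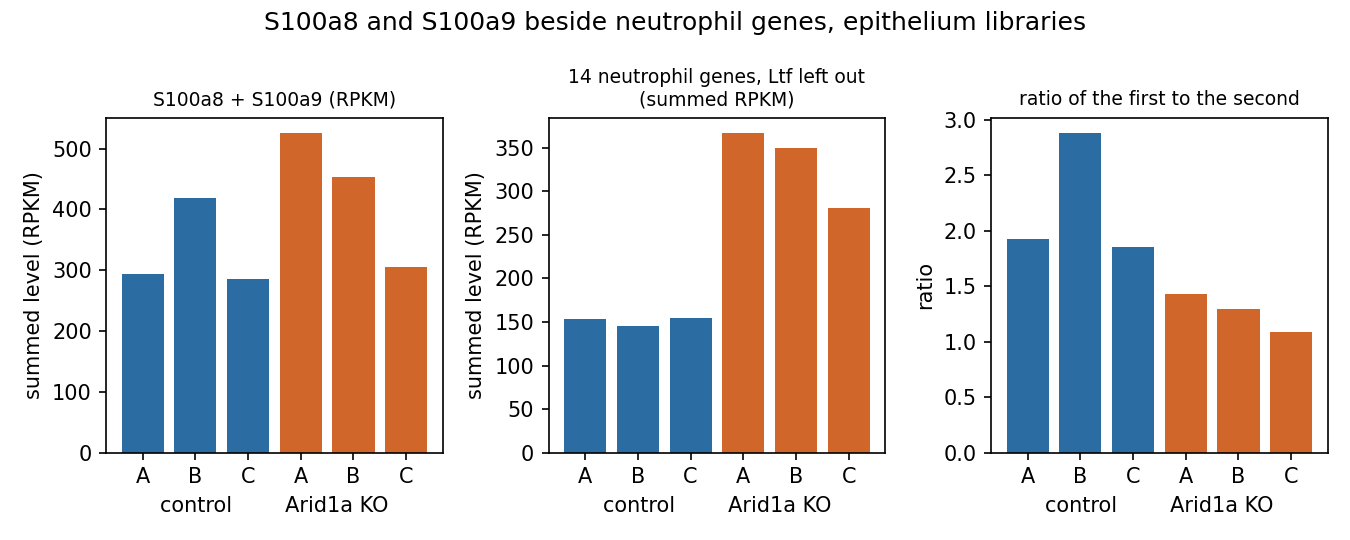
For each epithelial library, the summed RPKM of S100a8 and S100a9, the summed RPKM of 14 neutrophil genes without Ltf, and the ratio of the former to the latter, with bars from 0. The calprotectin sum overlaps between groups, the neutrophil sum is 146 to 154 in controls and 280 to 367 in the KO, and the ratio is 1.85 to 2.88 in controls and 1.09 to 1.43 in the KO.

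The 4 remaining members partner with annexins or the cytoskeleton, and none passed the test in the epithelium. S100a10, the p11 subunit that binds annexin A2 without needing calcium, had 198, 231 and 210.2 RPKM in controls and 220.3, 187 and 188 RPKM in the KO. S100a11, a partner of annexin A1, had 959, 990.4 and 971 RPKM in controls and 976, 718 and 938 RPKM in the KO. For both genes the groups overlapped, and for S100a11 only KO B stood well below the rest. Their log2 fold changes were -0.10 ± 0.09 (SE; adjusted p = 0.375; 95% interval -0.32 to 0.12) and -0.16 ± 0.13 (SE; adjusted p = 0.314; 95% interval -0.47 to 0.14). A processed pseudogene, S100a11-ps on chromosome 12, may share reads with S100a11, though its own row held at most 0.675 RPKM. S100a6, known as calcyclin, had 355, 498 and 366 RPKM in controls and 386, 517 and 414 RPKM in the KO. In each group library B was high. S100a4, which binds non-muscle myosin and is linked to cell motility, had 40.3, 41.1 and 42.5 RPKM in controls and 37.3, 42.3 and 33.8 RPKM in the KO. The log2 fold change was 0.12 ± 0.16 for S100a6 (SE; adjusted p = 0.556; 95% interval -0.26 to 0.49) and -0.13 ± 0.09 for S100a4 (SE; adjusted p = 0.223; 95% interval -0.33 to 0.07). For S100a4, S100a10 and S100a11 the sign of these uncalled changes turned when libraries were rescaled to the same sum. Of 8 fibroblast genes, the cells in which S100a4 is also common, 1 rose (Fn1) and 3 fell (Dcn, Lum and Pdgfra). Over all tested genes 27.5% were called higher and 29.6% lower.

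Genes for partners and receptors of S100 proteins were examined beside the family. Of 20 such genes 19 were tested in the epithelium, 8 rose and 5 fell, with a median log2 fold change of 0.15 against -0.03 over all genes. The share of 13 of 19 called stands against 57.1% overall. Those with the largest changes were Il1a, the interleukin whose release involves S100a13, with mean levels of 14.7 and 67.7 RPKM (log2 fold change 2.12, adjusted p = 2.94e-06), and Cd33, a sialic acid receptor of myeloid cells, with 6.64 and 17.7 RPKM (1.29, adjusted p = 1.32e-05). Gap43, a neuronal growth protein, fell from 4.16 to 1.13 RPKM (-1.29, adjusted p = 0.000117), and Mdm2, the ubiquitin ligase of p53, rose from 11.03 to 24.1 RPKM (1.06, adjusted p = 6.07e-05).

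Partners of single members can be read beside them. Anxa1 rose from 372 to 767 RPKM (1.04, adjusted p = 0.000258) while its partner S100a11 did not pass the test. Anxa2 had 296 and 340.2 RPKM (0.20, adjusted p = 0.102), and neither it nor S100a10 passed. Fgf1, like S100a13, fell, from 11.02 to 5.44 RPKM (-0.91, adjusted p = 0.000846), whereas Il1a rose. Myh9, the myosin that S100a4 binds, rose from 179 to 268 RPKM (0.58, adjusted p = 0.000748), and Cacybp, the calcyclin-binding protein, rose from 14.4 to 17.7 RPKM (0.28, adjusted p = 0.027). The calprotectin receptors went separate ways. Tlr4 rose from 4.32 to 8.19 RPKM (0.79, adjusted p = 8.86e-05), Ager fell from 2.21 to 1.25 RPKM (-0.52, adjusted p = 0.00543), and Bsg fell from 346 to 234 RPKM (-0.56, adjusted p = 0.0037). Tlr4 and Cd33 are myeloid genes as well, and the macrophage list rose in the same libraries.

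The other S100 genes were close to the detection limit in the epithelium. Of 8 symbols 7 were in the table and 4 were tested. Of these, 2 were called, both higher, against 27.5% of all tested genes called in that direction. S100a3, a gene of hair and squamous tissue, had 0.209, 0.184 and 0.167 RPKM in controls and 1.16, 1.15 and 0.972 RPKM in the KO (log2 fold change 0.82, adjusted p = 0.000253). S100g, the vitamin D-dependent calbindin, had 0.422, 0.0574 and 0.802 RPKM in controls and 1.92, 1.61 and 1.59 RPKM in the KO (0.95, adjusted p = 0.0036). In both the groups were apart, although the levels remained below 2 RPKM. Both genes averaged under the minimum of 0.5 RPKM in controls and were tested only through the KO libraries where they are high, so their calls and the count of 2 are a description. S100a2 averaged 0.485 and 1.28 RPKM (0.67, adjusted p = 0.0538), and S100b 0.736 and 0.517 RPKM (-0.18, adjusted p = 0.408). S100a3 and S100a2 overlap on the same strand, so reads could be shared between them. S100a5, S100a7a and S100z were below the minimum. Of 7 genes whose products fuse an S100 domain to repeats only Tchh was tested, at 1.26 and 1.41 RPKM (adjusted p = 0.464).

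Myc-CaP cells carried a different mixture of the same family. S100a6, S100a10 and S100a11 held 97.7% to 98.0% of the family sum in EV and 96.4% to 97.0% in the KO. S100a6 led at 3405 ± 316 TPM (SD, n = 2) in EV, rank 29 among 13974 tested genes, and at 5112 ± 515 TPM in the KO, rank 9. The members led by S100a11 in the epithelium were thus led by S100a6 here, but the tables were normalized separately and no test between them was made. The family held 0.608% and 0.647% of all TPM in the EV libraries and 0.739% and 0.803% in the KO. S100a8 was listed at 0 in all 4 libraries, and S100a9 at 0.435 TPM in EV 1 and at 0 in the other 3, so neither was tested. The neutrophil list summed to at most 0.340 TPM in these cells, with 9 of its 15 genes listed at 0 throughout.

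**Figure D4:**
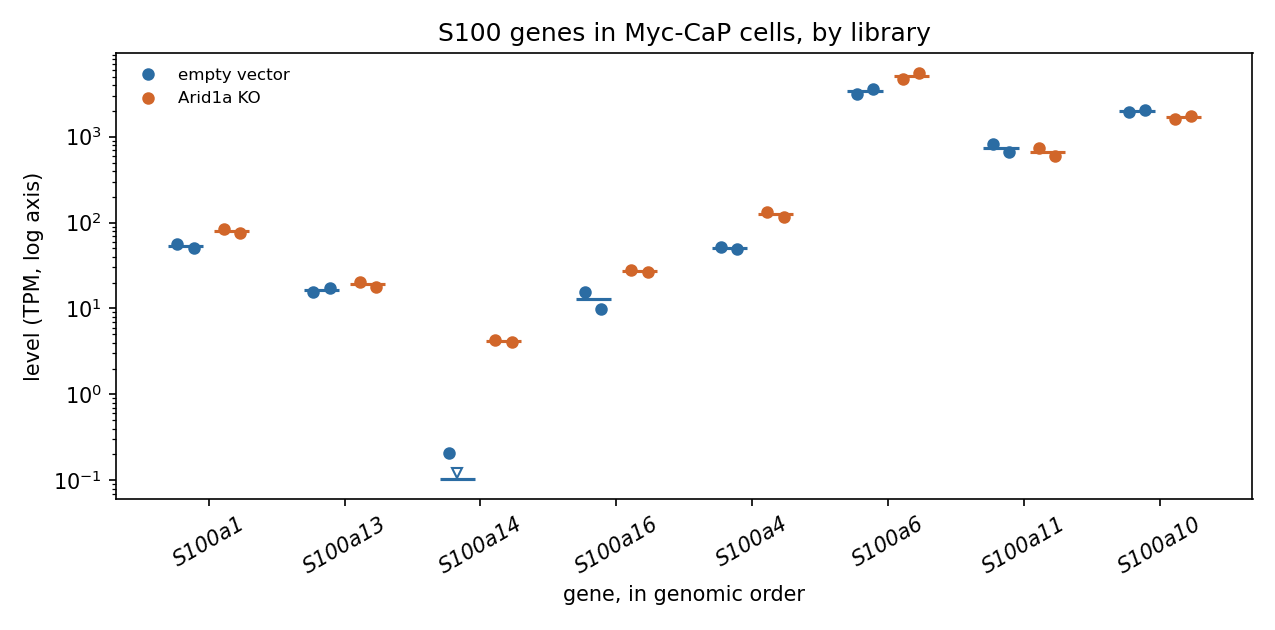
TPM levels of the 8 S100 genes tested in Myc-CaP cells on a log axis, with 1 point per library, a bar at each group mean (n = 2 per group) and an open triangle for the S100a14 value listed at 0. The KO points lie above the EV points for S100a1, S100a13, S100a14, S100a16, S100a4 and S100a6, below them for S100a10, and overlap them for S100a11.

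In Myc-CaP 4 of the 10 members rose with Arid1a KO (S100a1, S100a4, S100a6 and S100a14) and none fell, 4 did not pass the test and 2 were not tested. Over all 13974 genes tested 6.43% were called, 4.54% higher and 1.89% lower. S100a14 reached the minimum mean only through the KO libraries, so the count of called members is a description.

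S100a4 rose the most among members detected in every library. It had 51.5 and 49.8 TPM in EV 1 and 2 and 132 and 117 TPM in KO 1 and 2. The KO libraries were more than 2-fold above EV, with a log2 fold change of 1.28 ± 0.08 (SE; adjusted p = 0.00354; 95% interval 1.08 to 1.48). S100a6 had 3182 and 3628 TPM in EV and 4747 and 5476 TPM in the KO. Its KO libraries were both above EV, with a log2 fold change of 0.59 ± 0.11 (SE; adjusted p = 0.0466). S100a1 had 55.8 and 50.6 TPM in EV and 83.6 and 76.3 TPM in the KO, with a log2 fold change of 0.58 ± 0.08 (SE; adjusted p = 0.0248). Again the groups were apart, here in the direction opposite to the epithelium. Leaving out EV 1, EV 2, KO 1 or KO 2 gave adjusted p-values of 0.0575, 0.0562, 0.0537 and 0.0427 for S100a4, of 0.25, 0.172, 0.165 and 0.244 for S100a6, and of 0.118, 0.154, 0.165 and 0.123 for S100a1, in fits where the lone library of a group is assumed to vary like the others.

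S100a14 and S100a16 were low in EV cells. S100a14 had 0.208 TPM in EV 1, was listed at 0 in EV 2, and had 4.30 and 4.08 TPM in the KO. Both KO libraries were thus clearly above EV, but a ratio to values this near 0 has no firm size, and the log2 fold change of 2.24 ± 0.19 (SE; adjusted p = 0.00703) became 4.61 with a pseudocount of 0.1. Leaving out EV 1, EV 2, KO 1 or KO 2 gave adjusted p-values of 0.0593, 0.0623, 0.0893 and 0.0818 for S100a14. S100a16 had 15.6 and 9.90 TPM in EV and 28.4 and 26.7 TPM in the KO. The groups did not overlap and EV 2 was the lower control, but the log2 fold change of 1.09 ± 0.21 (SE; 95% interval 0.55 to 1.62) missed the threshold with an adjusted p of 0.0524. S100a16 did pass the thresholds of the study, as did S100a4, S100a6 and S100a14. This count of 4 higher and none lower stands against 6.28% of all tested genes, 4.62% higher and 1.66% lower. It includes S100a14, which was tested only through its KO libraries, so the count is a description. Of 7 epithelial genes only Krt8 and Krt19 were tested, and both were called higher in the same KO libraries. Krt8 averaged 0.932 TPM in EV and 39.6 TPM in the KO, nearly all of a list sum of 45.1 TPM, and Krt19 (0.207 and 3.46 TPM) was tested only through the KO. Epcam stayed at 0 to 0.128 TPM, and Cldn7 averaged 0.330 and 0.302 TPM. Of 4 tested squamous genes 3 rose (Krt4, Krt16 and Krt6a), against 4.54% of all tested genes called higher. The part of these markers in the S100a14 and S100a16 values was not tested.

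The other members of Myc-CaP cells did not pass. S100a10 had 1932 and 2061 TPM in EV and 1621 and 1727 TPM in the KO, a log2 fold change of -0.25 ± 0.07 (SE; adjusted p = 0.109). It was the only member with both KO libraries below EV. S100a13 had 15.8 and 17.1 TPM in EV and 20.1 and 17.9 TPM in the KO (0.20 ± 0.10, SE; adjusted p = 0.319). S100a11 had 823 and 655 TPM in EV and 748 and 589 TPM in the KO (-0.15 ± 0.16, SE; adjusted p = 0.663). For S100a11 library 2 was the lower one in both groups, and the groups overlapped. Library 2 of each group also stood apart in the fibroblast gene Col1a1, at 19.4 TPM in EV 2 and 7.45 TPM in KO 2 against 0.211 and 0.347 TPM in EV 1 and KO 1, and its part in the S100a11 values was not tested. In all, 7 of the 8 tested members did not overlap between groups, 6 higher and 1 lower. Of all tested genes 51.5% did not overlap, 24.9% higher and 26.6% lower. S100a14, among the 6 higher, was tested only through its KO libraries, so this count is a description. Of the partners and receptors 12 were tested and none passed limma at an adjusted p of 0.05, with 6 at an unadjusted p under 0.05. Of the other S100 genes only S100a3 (0.854 and 1.24 TPM on average) and S100a7a (0.700 and 0.844 TPM) were tested, and neither passed (adjusted p = 0.564 and 0.788).

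Set side by side, 2 members were called in both systems, S100a14 and S100a1. S100a14 was higher with the Arid1a label in each, at 1.10 in the epithelium and 2.24 in Myc-CaP on the log2 scale, but in Myc-CaP it was tested only through its KO libraries and that size depends on the pseudocount. S100a16 was the other member whose KO libraries all lay above the controls in each system, at 0.47 and 1.09, the latter without passing the test. S100a1 went opposite ways, at -0.93 and 0.58, and its neighbour S100a13 had opposite signs as well at -0.30 and 0.20, of which only the former passed. The ratio of S100a1 to S100a13, which was lower in the epithelial KO libraries, was 2.96 to 3.54 in EV and 4.15 to 4.26 in the Myc-CaP KO. In genomic order the 4 members called in the epithelium were the 4 at the start of the larger cluster. The call of S100a13 among them was lost under several alternatives. S100a4 and S100a6, which were called in Myc-CaP but not in the epithelium, are the next members along. S100a3, S100a2 and S100a5, which are not members, lie between S100a16 and S100a6. Whether position played a part was not tested. Whether the systems differ for any member was not tested.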

How the data were processed

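RNA was sequenced from 6 libraries of sorted mouse prostate epithelium and 4 of Myc-CaP cells. The authors deposited gene levels as RPKM for the epithelium and as TPM for Myc-CaP. The study's methods name TopHat2 and strand-aware HTSeq counting on GRCm38, whereas the submitters' processing notes name HISAT2, HTSeq, DESeq2 and mm10; the gene lengths used are not given in the sources used here. Neither deposited unit gives reads per gene, so absolute depth and counting error are unknown. Relative depth was estimated from the most common ratio of low values between libraries. It ranged from 1.0 to 1.26 in the epithelium, highest in control B, and from 1.0 to 1.15 in Myc-CaP. RPKM sums were about 441646 to 473331 per library in epithelial controls and 397999 to 403031 in the KO, so every KO sum was lower.

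Groups followed the genotype labels; an allele that both epithelial groups carry is not reported here. Each table was fitted alone with limma 3.58.1 in R 4.3.3 (empirical Bayes with trend) on log2(value + 1) for genes with a mean of at least 0.5 (16275 and 13974 genes), with Benjamini-Hochberg adjustment over all of them. A call is an adjusted p under 0.05; the second rule, from the study, is an unadjusted p under 0.05 with at least 1.5-fold change. With 3 against 3 libraries an exact two-sided permutation test cannot go below 0.1, and with 2 against 2 not below 0.333, so none was used for single genes. Pseudocount, filter, normalization, moderation, replicate block and left-out libraries were varied. The fitting script was tested on simulated data. Same-lettered epithelial libraries are not paired by the labels.

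The named genes are all 10 members, and from the lists of other S100 genes, partners and fused genes the 4 called with the largest changes, or all if 6 or fewer were tested. Partners of single members and the ratio to Retnlg were added after values were seen. Members and lists were chosen with earlier results of these data known. Positions are from GENCODE M21.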

Additional observations from a re-analysis of the deposited data

Results flagged for a closer look

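S100a1 and S100a13, which lie head to head, had opposite signs with the Arid1a label in the 2 systems. For S100a1 every KO library was below every control in the epithelium (log2 fold change -0.93) and above them in Myc-CaP (0.58). Its call in Myc-CaP (limma, adjusted p = 0.0248) was lost without a filter on low values (0.0656) and without a trend (0.0793). The Myc-CaP value ranged from 0.5104 to 0.649 over 12 alternatives. For S100a13 the groups were likewise apart, at -0.30 and 0.20, but the latter did not pass the test (limma, adjusted p = 0.319) and the former lost its call under 8 of 14 alternatives. Groups that do not overlap are common in these tables, at 66.7% of tested genes in the epithelium and 51.5% in Myc-CaP. The difference between systems was not tested, because the tables were normalized separately.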

How the results depend on the processing

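Each result was recomputed under 14 alternatives in the epithelium and 12 in Myc-CaP, or 11 for S100a14, which was not tested at a minimum mean of 5. S100a1 and S100a14 kept their direction and call in the epithelium under all 14. Over the single-gene values 191 kept direction and call, 30 lost a call, 6 gained one and 8 changed sign, none of the latter called. In the epithelium the calls over all genes went from 9294 to 5872 at a minimum mean of 5, which tests fewer genes, and to between 7768 and 8819 when a library was left out. Members called fell from 4 to as few as 2 (without control C or KO B) and were 4 at most; members past the study's thresholds were 2 to 3. With libraries rescaled to the same sum, the all-gene median stood at 0.11 in place of -0.03, and 64.9% of calls were higher in place of 48.1%. Under that scaling the uncalled S100a4 became 0.0432, S100a10 0.0745 and S100a11 0.0151; with quantile normalization S100a10 was 0.0045 and S100a11 0.0842, and S100a6 ranged from -0.0062 (without KO B) to 0.2718 (without control B) when a library was left out. In Myc-CaP 899 genes were called, 358 without a filter and 451 without a trend, and members called went from 4 to 2 under both (S100a4 and S100a14 remained). Leaving out a library there left 47 to 76 genes and 0 to 1 members called (S100a4, without KO 2), with 4 to 4 members past the study's thresholds (3 with quantile normalization or a minimum mean of 5, and 5 with a pseudocount of 0.1 or median-of-ratios rescaling; S100a6 lies on the 1.5-fold limit), and S100a11 ranged from -0.3168 without KO 1 to 0.0192 without EV 1 and 0.0268 without KO 2. The cause of these shifts was not tested beyond the fewer genes or libraries. With a replicate block 2771 genes and 7 members were called in Myc-CaP, and the higher share of calls went from 70.6% to 52.4%; in the epithelium the block left 3 members called. The labels give the libraries only a shared number or letter. Deviations of same-numbered Myc-CaP libraries correlated at 0.19, a single value, since with 2 libraries per group both pairs must give the same number. Library 2 of each Myc-CaP group also stood apart in Col1a1, as given above. Deviations of same-lettered epithelial libraries correlated at 0.04, 0.0094 and -0.06. Limits remain the 2 Myc-CaP libraries per group, unknown absolute depth, and levels near 0 for S100a14 in EV.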
